A study of Mus musculus with 25 samples.

Results

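*Ptcra*, *Rag1*, *Rag2*, *Dntt* and *Il2ra*, 5 genes that mark the DN3 stage of thymocyte development, were followed after injection of anti-CD3ε into mice without RAG1. They were taken by symbol from the table of normalized counts, in which each of the 5 symbols matched 1 of 48795 genes, and all 5 were among the 14141 genes tested, those whose mean over the libraries reached 10. The genes were picked as known DN3 genes with their decline in these data already in view, so that the decline itself is described here in detail rather than put to a fresh test. The WNK1-deficient mice were *Wnk1* fl/fl CD2-Cre *Rag1*-/- and the control mice *Wnk1* fl/+ CD2-Cre *Rag1*-/-, all 7 to 8 weeks old. In both, Cre is driven by the human CD2 promoter in the lymphoid lineage and removes exon 2 of *Wnk1*, so the controls have also lost 1 of their 2 copies. Thymocytes that were Thy1.2+CD44-, a gate that holds both DN3 and DN4 cells and does not use CD25, were sorted. The mice of 0 hr had no injection, and the others had received 150 µg anti-CD3ε intraperitoneally 3, 24 or 48 hr earlier. There were 13 WNK1-deficient and 12 control libraries, 3 in each of the 8 groups except 4 of WNK1-deficient thymocytes at 0 hr, each from a different mouse, and all from one experiment.

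DN3 thymocytes (CD4-CD8-CD44-CD25+) cut and join the T-cell receptor β locus. RAG1 and RAG2 make the breaks, and terminal deoxynucleotidyl transferase, the product of *Dntt*, adds bases without a template at the joints. A β chain that comes out in frame pairs with pre-Tα, the product of *Ptcra*, and with the CD3 chains to form the pre-TCR, whose signal takes the cell through β-selection to DN4 and then to the CD4+CD8+ (DP) stage. Recombination is switched off at that point, and *Il2ra*, which encodes CD25, the α chain of the IL-2 receptor, is switched off as DN3 cells become DN4 cells. *Ptcra* is a well known target of Notch and of E proteins. Without RAG1 no β chain is made and thymocytes stop at DN3, and an antibody to CD3ε crosslinks the few CD3 chains on the surface in place of the pre-TCR signal. The mice carry a disrupted *Rag1*, so the *Rag1* reads of every library come from a gene that makes no working protein, whichever the *Wnk1* genotype.

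The genes lie on 3 chromosomes of GRCm38. *Ptcra* is at chr17:46755663-46763712 on the minus strand, *Dntt* at chr19:41029275-41059525 on the plus strand and *Il2ra* at chr2:11642792-11693194 on the plus strand. *Rag2* (chr2:101624712-101632528, plus strand) and *Rag1* (chr2:101638252-101649532, minus strand) point towards each other with 5723 bases between them and no other RefSeq gene in that gap. The promoter windows of 4 of them are printed, 250 bases before to 50 bases after the RefSeq start (GRCm38.p6). They set side by side the 2 recombinase genes, which moved most closely together, and 2 others. These are *Ptcra*, which lost most of its level in WNK1-deficient thymocytes, and *Il2ra*, which differed least from 0 hr at 3 hr. Capitals mark matches on either strand to the E-box letters CANNTG, to TGTGGT, which RUNX proteins bind, to the motif of GATA factors, spelled here as AGATAA, or to the motif of RBPJ, the DNA-binding partner of Notch, spelled here as TGGGAA.
Ptcra, chr17:46763663-46763962, minus strand: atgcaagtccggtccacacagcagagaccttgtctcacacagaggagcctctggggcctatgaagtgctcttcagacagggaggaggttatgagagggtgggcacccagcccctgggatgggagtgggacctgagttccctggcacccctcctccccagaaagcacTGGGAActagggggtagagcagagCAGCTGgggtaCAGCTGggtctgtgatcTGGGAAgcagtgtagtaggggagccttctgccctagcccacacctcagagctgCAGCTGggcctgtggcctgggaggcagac
Rag1, chr2:101649483-101649782, minus strand: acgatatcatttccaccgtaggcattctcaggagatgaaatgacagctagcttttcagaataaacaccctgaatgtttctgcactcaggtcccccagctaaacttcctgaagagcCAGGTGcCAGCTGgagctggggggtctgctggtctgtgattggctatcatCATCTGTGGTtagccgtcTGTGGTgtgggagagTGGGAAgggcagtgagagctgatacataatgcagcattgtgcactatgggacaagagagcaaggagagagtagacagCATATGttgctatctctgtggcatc
Rag2, chr2:101624462-101624761, plus strand: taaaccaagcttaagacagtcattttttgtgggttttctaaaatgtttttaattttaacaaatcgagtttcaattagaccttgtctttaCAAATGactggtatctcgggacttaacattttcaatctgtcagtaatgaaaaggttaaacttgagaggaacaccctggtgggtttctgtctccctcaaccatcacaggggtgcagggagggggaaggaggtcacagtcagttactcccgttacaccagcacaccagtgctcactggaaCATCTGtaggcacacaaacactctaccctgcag
Il2ra, chr2:11642542-11642841, plus strand: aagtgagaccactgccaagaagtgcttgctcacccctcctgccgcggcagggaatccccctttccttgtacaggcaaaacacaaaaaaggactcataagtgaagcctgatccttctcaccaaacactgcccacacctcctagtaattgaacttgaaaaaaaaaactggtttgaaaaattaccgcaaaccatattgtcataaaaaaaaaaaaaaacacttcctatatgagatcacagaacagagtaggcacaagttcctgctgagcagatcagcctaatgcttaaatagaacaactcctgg

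An E-box was found in 72.3% of 32851 RefSeq promoter windows of this length, the E-box CAGGTG, which is also counted as CANNTG, in 20.2%, the RUNX motif in 16.8%, the GATA motif in 11.2% and the RBPJ motif in 25.6%. The *Ptcra* window held 3 E-boxes, all of them CAGCTG, and 2 RBPJ motifs. The *Rag1* window held 4 E-boxes, 1 of which was CAGGTG, 2 RUNX motifs and 1 RBPJ motif, whereas the *Rag2* window held 2 E-boxes and none of the other motifs. The *Dntt* window (not printed) held 3 E-boxes and 1 GATA motif. None of these letters occurred in the *Il2ra* window. These matches describe the windows only, and an E-box is too frequent to set a promoter apart.

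Each library held 22.5 to 57.3 M recovered reads. *Wnk1* was lower in WNK1-deficient than in control libraries at every time, by 0.83 to 1.05 on the log2 scale, and passed the test each time. The defining genes of the sorted cells (*Thy1*, *Cd3e*, *Cd3g*, *Lck* and *Ptprc*) were at 9907 or more in every library, and *Ms4a1* and *Pax5* of B cells were at most 0.661 and 1.43. Some genes on the lists of other cell types were well expressed. *Cd79b*, on the B-cell list, was at 368 to 2604 and was called at each of the 4 times as lower without WNK1 (-1.35 at 0 hr), while *Cd79a* ran up to 41.5. *Kit* of DN1 and DN2 cells reached 7181, *Nkg7* of NK cells 12346, *Lyz2* of myeloid cells 2203 and *Epcam* of epithelium 3451, against at most 118 for *Ncr1*, 0.674 for *Ly6g* and 29.6 for *Krt5* of the last 3 lists. The part of such cells in the results was not tested. Sequencing lane and sex followed time. *Xist* was at 10918 or more in all libraries of 0 and 48 hr and under 14 in all of 3 and 24 hr, where the Y-linked genes were expressed, so that sex and time cannot be told apart in comparisons of 3 or 24 hr with 0 or 48 hr, while 0 and 48 hr shared 1 sex and 3 and 24 hr the other. All WNK1-deficient libraries of 0 hr came from lane 2 and all control libraries of 0 hr from lane 1, and at this time lane and genotype cannot be told apart.

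In all, 3 libraries stood apart from the other 2 of their group, and the 5 genes stood apart with them. Each was also the only library of its group in its sequencing lane, so that lane and library cannot be told apart there. It was lane 3 for WNK1-deficient thymocytes of 48 hr and control thymocytes of 24 hr, and lane 4 for control thymocytes of 3 hr. Replicate 3 of WNK1-deficient thymocytes at 24 hr and of control thymocytes at 48 hr was likewise alone in its lane. These 2 libraries were not compared over all genes as the 3 were. *Ptcra* was at 3.93 and 135 there and *Rag1* at 68.2 and 176, within the range of the other libraries of the group. In this WNK1-deficient library *Rag2* (17.04), *Dntt* (3223) and *Il2ra* (12039) were the highest of the group. In this control library *Rag2* (28.03) lay within the range, *Dntt* (4933) was the lowest and *Il2ra* (12387) the highest. In replicate 3 of WNK1-deficient thymocytes at 48 hr and in replicate 3 of control thymocytes at 24 hr, all 5 genes were higher than in both other libraries of the group. The excess over the mean of the other 2 was 28.2-fold for *Ptcra* and 1.67-fold for *Il2ra* in the WNK1-deficient library, and 26.95-fold for *Ptcra* and 4.43-fold for *Il2ra* in the control library. Of 12 genes that mark cells after β-selection, 6 were lower and 3 higher than in both other libraries in the first, and 8 were lower and 2 higher in the second. Over all genes tested, 32.2% were lower and 32.9% higher than in both in the first, and 34.9% and 35.6% in the second. *Trac*, the constant region of the T-cell receptor α chain, was at 0.139 times the mean of the others in the first and at 0.158 times in the second. Replicate 3 of control thymocytes at 3 hr stood apart in another way. It held *Cd8a* at 12653 and *Cd4* at 5508, genes of DP thymocytes, against at most 432 and 247 in the other 2 control libraries of that time, and 8 of the 12 markers were higher than in both, as were 32.1% of all genes. In this library *Rag1* and *Rag2* were the highest of their group and *Ptcra*, *Dntt* and *Il2ra* the lowest. The part of these libraries in any difference was not tested beyond leaving them out.

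**Figure D1:**
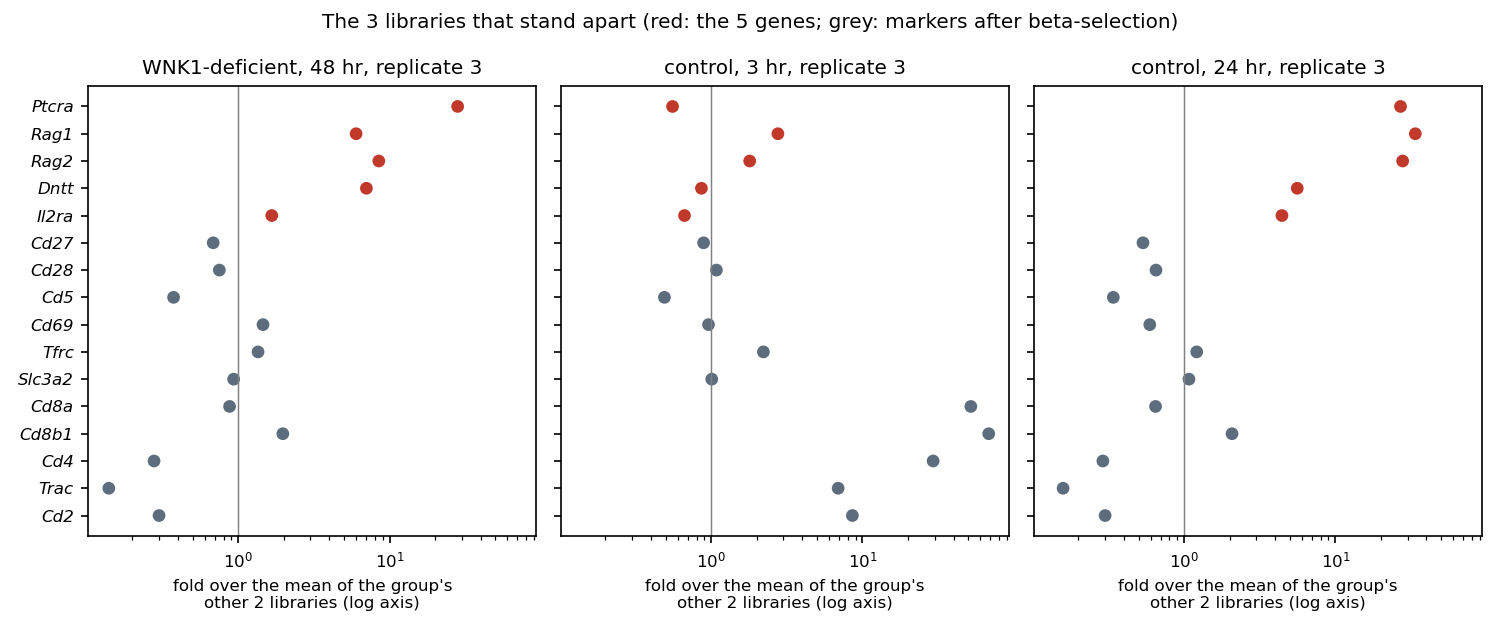
Each point is the normalized count of a gene in the named library divided by the mean of the other 2 libraries of its group (log axis), for the 5 DN3 genes in red and markers of cells after β-selection in grey. *Ptcra* lies at 28.2 in the WNK1-deficient library of 48 hr, at 0.555 in the control library of 3 hr and at 26.95 in the control library of 24 hr.

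*Ptcra*, the pre-TCR chain, had lost more of its level than the others in WNK1-deficient thymocytes at 24 and 48 hr. At 0 hr it was at 3902, 4757, 5164 and 4684 normalized counts in WNK1-deficient libraries, against 18678, 17744 and 17024 in control libraries. The groups did not overlap, and both were tight. At 3 hr the values were 1157, 1368 and 1135 in WNK1-deficient libraries, against 3993, 1758 and 1597 in control libraries. These groups still did not overlap, but they lay close together, 1368 against 1597 at the nearest. At 24 hr *Ptcra* stood at 5.93, 3.06 and 3.93 in WNK1-deficient libraries, which are 8, 2 and 3 reads, against 59.2, 115 and 2344 in control libraries. The loss was then nearly complete without WNK1. The lowest control library was at 59.2, which is 0.332% of the higher control mean of 0 hr. At 48 hr it was at 18.2, 22.5 and 574 in WNK1-deficient libraries, against 173, 114 and 135 in control libraries, and the groups overlapped through the one WNK1-deficient library that stood apart.

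As a share of the 0 hr mean of the same genotype, *Ptcra* fell to 26.4% in WNK1-deficient and 13.7% in control thymocytes at 3 hr, and to 0.0931% in WNK1-deficient and 4.71% in control thymocytes at 24 hr. Without the control library that stood apart, the 2 others of 24 hr held 0.332% and 0.644%. At 48 hr the share was 4.43% in WNK1-deficient thymocytes, with 0.394% and 0.485% in the 2 libraries that did not stand apart, and 0.790% in control thymocytes. On the log2(value + 1) scale, which understates a loss of this size, the difference from 0 hr was -9.80 (95% confidence interval -11.79 to -7.80, adjusted p = 1.8e-07) in WNK1-deficient and -6.13 (-8.26 to -4.00, adjusted p = 0.000103) in control thymocytes at 24 hr.

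*Rag1* and *Rag2*, the 2 subunits of the recombinase, fell together. *Rag1* was at 4504, 4264, 3234 and 3803 in WNK1-deficient libraries at 0 hr, against 13541, 16416 and 27459 in control libraries. Control libraries varied among themselves by 2.03-fold, yet each exceeded every WNK1-deficient one. At 3 hr it was at 1264, 1155 and 603 in WNK1-deficient libraries, against 4079, 3270 and 10146 in control libraries, the last being the library with DP genes. The gap between the groups remained without that library. At 24 hr *Rag1* was at 83.8, 50.4 and 68.2 in WNK1-deficient libraries, against 170, 143 and 5286 in control libraries, and at 48 hr at 105, 89.2 and 585 in WNK1-deficient libraries, against 457, 159 and 176 in control libraries. Only the groups of 48 hr overlapped.

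*Rag2* was at 1364, 1234, 918 and 1122 in WNK1-deficient libraries at 0 hr, against 3091, 4225 and 5012 in control libraries, and at 140, 237 and 141 in WNK1-deficient libraries at 3 hr, against 874, 517 and 1250 in control libraries. Every control library was above every WNK1-deficient one at both times. At 24 hr it was at 12.6, 4.59 and 17.04 in WNK1-deficient libraries, against 28.8, 31.6 and 840 in control libraries. The groups did not overlap, but leaving aside the control library that stood apart the distance was small, with 17.04 in the highest WNK1-deficient library, against 28.8 in the lowest control one. At 48 hr *Rag2* was at 23.6, 10.6 and 145 in WNK1-deficient libraries, against 54.9, 18.8 and 28.03 in control libraries, and the groups overlapped.

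Over 3, 24 and 48 hr, the share of the 0 hr mean left of *Rag1* was 25.5%, 1.71% and 6.57% in WNK1-deficient thymocytes, against 30.5%, 9.75% and 1.38% in control thymocytes. For *Rag2* it was 14.9%, 0.984% and 5.16% in WNK1-deficient thymocytes, against 21.4%, 7.31% and 0.826% in control thymocytes. In the 2 control libraries of 24 hr that did not stand apart it was 0.748% and 0.889% for *Rag1* and 0.700% and 0.769% for *Rag2*, and in the 2 such WNK1-deficient libraries of 48 hr it was 2.26% and 2.66% for *Rag1* and 0.912% and 2.04% for *Rag2*. The control mean of 3 hr without the library with DP genes was 19.2% for *Rag1* and 16.9% for *Rag2*. Dividing *Rag1* by *Rag2* within a library, with no correction for transcript length, gave 3.30 to 3.52 in WNK1-deficient and 3.89 to 5.48 in control libraries at 0 hr, which did not overlap. The ratio ran from 4.27 to 9.02 in WNK1-deficient and from 4.67 to 8.11 in control libraries at 3 hr. Over all libraries it ran from 3.30 to 11, and the highest came from a library with few *Rag2* reads.

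*Dntt* fell more slowly. It was at 83294, 82621, 79649 and 75485 in WNK1-deficient libraries at 0 hr, against 107364, 122454 and 100192 in control libraries. No control library was as low as any WNK1-deficient one. At 3 hr it was at 36411, 45008 and 33468 in WNK1-deficient libraries, against 59020, 47380 and 45860 in control libraries, and the groups nearly touched. At 24 hr it was at 3122, 1666 and 3223 in WNK1-deficient libraries, against 8104, 8811 and 47329 in control libraries. The groups lay well apart, with or without the control library of 47329. At 48 hr *Dntt* was at 4519, 3342 and 27660 in WNK1-deficient libraries, against 10165, 5959 and 4933 in control libraries, with overlap. The share left over 3, 24 and 48 hr was 47.7%, 3.33% and 14.8% in WNK1-deficient thymocytes, against 46.1%, 19.5% and 6.38% in control thymocytes. The control libraries of 24 hr that did not stand apart held 7.37% and 8.01%, and such WNK1-deficient libraries of 48 hr 4.16% and 5.63%.

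*Il2ra* changed least of the 5 genes at 3 hr in both genotypes. Like *Rag1* and *Dntt*, it was called in neither genotype then by the fit of all libraries. It was at 68878, 67361, 68302 and 73779 in WNK1-deficient libraries at 0 hr, against 97626, 103572 and 101264 in control libraries, and at 65305, 65231 and 73438 in WNK1-deficient libraries at 3 hr, against 101262, 91419 and 64208 in control libraries. The WNK1-deficient libraries of 3 hr lay within or just under the range of 0 hr, and the low control value of 3 hr belonged to the library with DP genes. At 24 hr *Il2ra* was at 8202, 7374 and 12039 in WNK1-deficient libraries, against 5645, 8005 and 30251 in control libraries, and at 48 hr at 22173, 8068 and 25196 in WNK1-deficient libraries, against 11138, 7273 and 12387 in control libraries. The genotypes overlapped at 3, 24 and 48 hr. The share left over the same times was 97.7%, 13.2% and 26.6% in WNK1-deficient thymocytes, against 84.9%, 14.5% and 10.2% in control thymocytes. Of the 5 genes it kept the largest share of its 0 hr mean in WNK1-deficient thymocytes at every time and in control thymocytes at 3 and 48 hr, while at 24 hr the control share of *Dntt* was larger. Without the libraries that stood apart the mean share of *Il2ra* was 6.77% in control thymocytes at 24 hr, against 13.2% in WNK1-deficient thymocytes, and 21.7% in WNK1-deficient thymocytes at 48 hr.

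**Figure D2:**
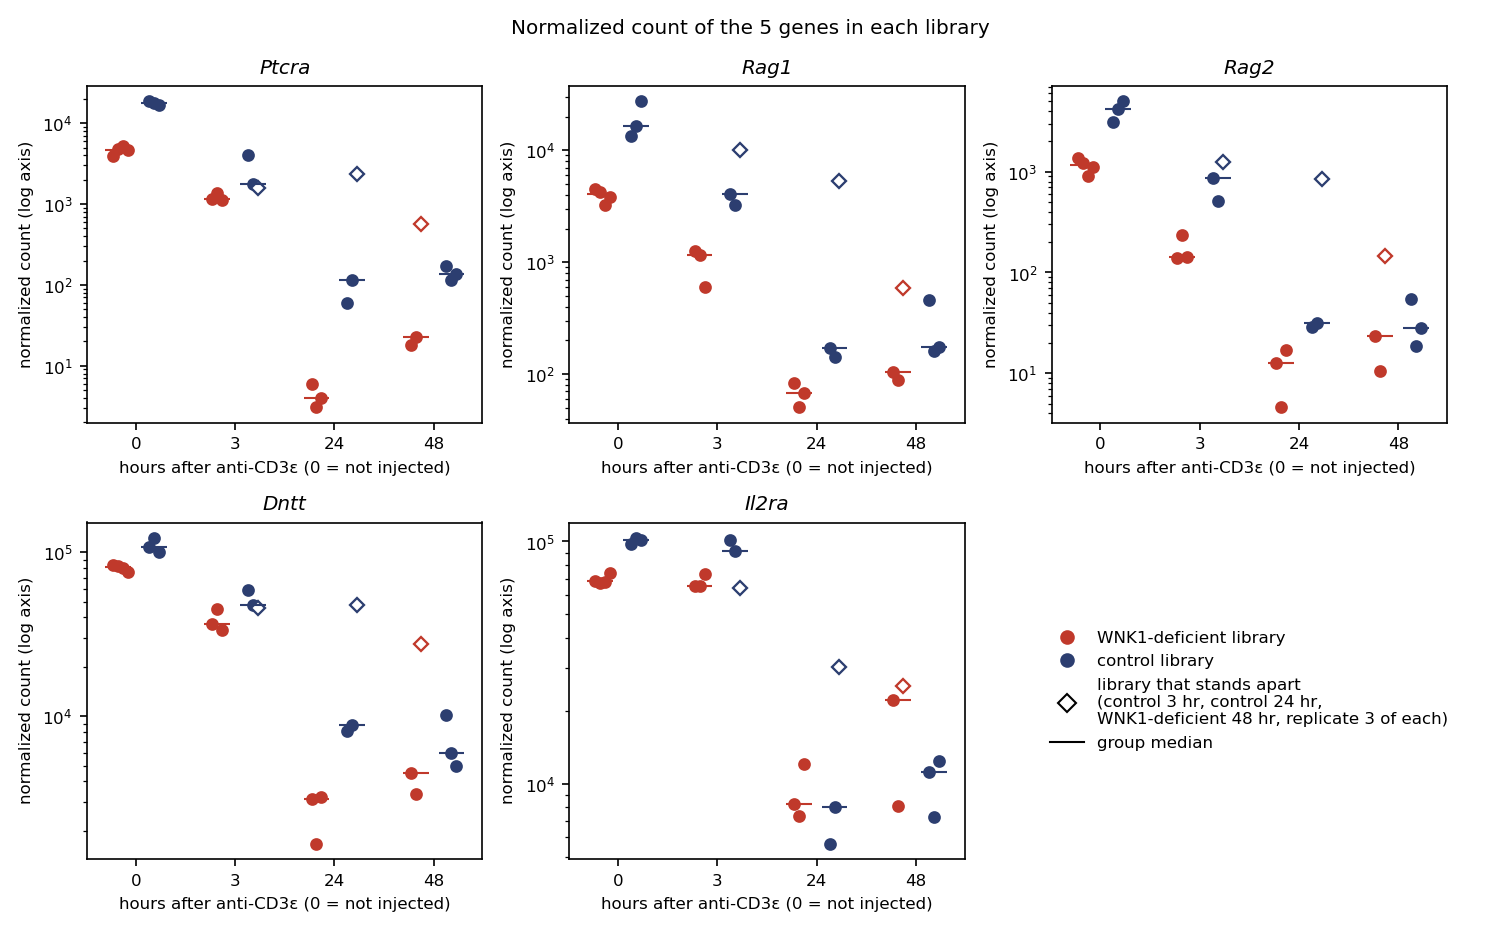
Normalized count of each gene (log axis) in each library, with WNK1-deficient libraries in red to the left of control libraries in blue at each time, group medians as lines, and the 3 libraries that stood apart as open diamonds. At 24 hr the WNK1-deficient libraries held 3.06 to 5.93 of *Ptcra*, below every control library (59.2 to 2344), while *Il2ra* overlapped.

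**Figure D3:**
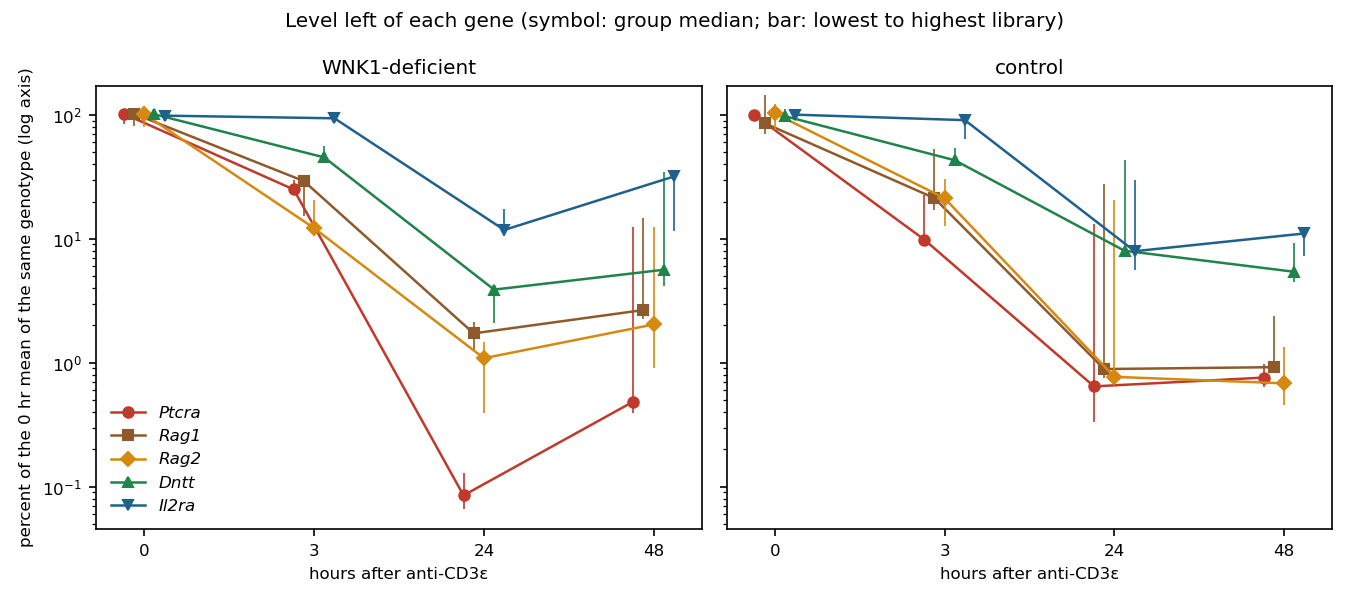
Level left of each gene as a percent of the 0 hr mean of the same genotype (log axis), with WNK1-deficient thymocytes on the left and control thymocytes on the right; symbols are group medians and bars run from the lowest to the highest library. In WNK1-deficient thymocytes *Ptcra* ran from 0.0661% to 0.128% at 24 hr, and *Il2ra* from 10.6% to 17.3%.

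At 3 hr after anti-CD3ε, the fit of all 25 libraries called *Rag2* alone in WNK1-deficient thymocytes (-2.77, interval -4.57 to -0.97, adjusted p = 0.0239) and *Ptcra* alone in control thymocytes (-2.99, interval -5.12 to -0.86, adjusted p = 0.0265), 1 of 5 genes each, where 11.3% and 18.5% of all genes tested were called lower. *Ptcra*, *Rag1*, *Rag2* and *Dntt* were lower in every library of 3 hr than in any of 0 hr in both genotypes, as were 20.7% of all genes in WNK1-deficient and 24.6% in control thymocytes. The fit takes its spread from all groups. For *Ptcra* the SD of the log2 values was 2.75 in WNK1-deficient thymocytes of 48 hr and 2.82 in control thymocytes of 24 hr, the groups with a library that stood apart, against at most 0.73 in any other group. When only the groups compared were fitted, and likewise without those 2 libraries, *Ptcra*, *Rag1*, *Rag2* and *Dntt* were called in both genotypes and *Il2ra* in neither. In either direction these fits called 34.4% and 28% of all genes in WNK1-deficient and 31% and 39.7% in control thymocytes. Of the 14141 genes tested they called 2394 and 1861 lower in WNK1-deficient and 2105 and 2854 lower in control thymocytes. The control call of *Ptcra* was lost without the library with DP genes, at -2.75, and also without replicate 2 of 3 hr or any 1 library of 0 hr. The WNK1-deficient call of *Rag2* was lost without replicate 1 or 3 of 3 hr or replicate 1 of 0 hr. For *Il2ra* the difference at 3 hr was -0.03 (interval -0.88 to 0.81) in WNK1-deficient and -0.26 (-1.17 to 0.64) in control thymocytes.

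All 5 genes were called lower than at 0 hr in both genotypes by 24 hr, and again at 48 hr. Over all genes tested, 14.3% were called lower at 24 hr and 12.5% at 48 hr in WNK1-deficient thymocytes, and 16.9% and 20.8% in control thymocytes. The differences from 0 hr in WNK1-deficient thymocytes at 24 hr were -9.80 for *Ptcra*, -6.69 for *Rag2*, -5.87 for *Rag1*, -4.97 for *Dntt* and -2.95 for *Il2ra*, with adjusted p from 1.8e-07 to 2.2e-05. In control thymocytes they were -6.13, -5.43, -5.17, -2.87 and -3.18 for the same genes, with adjusted p from 1.1e-05 to 0.000832. Without the control library that stood apart these were -7.74, -7.02, -6.86, -3.70 and -3.91. At 48 hr the differences were -6.17, -5.05, -4.46, -3.42 and -2.07 in WNK1-deficient thymocytes, and -6.99, -6.99, -6.28, -4.04 and -3.33 in control thymocytes. Without the WNK1-deficient library that stood apart, those of WNK1-deficient thymocytes were -7.76, -6.09, -5.32, -4.37 and -2.38. All 5 genes were still called in both cases. For each gene, in each genotype and at either time, every library lay below all those of 0 hr, as did 24.3% of all genes at 24 hr and 16.5% at 48 hr in WNK1-deficient and 21.8% and 25.3% in control thymocytes. At 48 hr *Il2ra* had the smallest difference and *Dntt* the next in both genotypes. In bulk RNA, fewer cells that express a gene and less of its RNA in each cell cannot be told apart.

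WNK1-deficient thymocytes held less of the 5 genes than control thymocytes before any injection. At 0 hr the log2 difference was -2.22 for *Rag1* (interval -4.00 to -0.44, adjusted p = 0.0676), -1.95 for *Ptcra* (-3.94 to 0.04, adjusted p = 0.149), -1.81 for *Rag2* (-3.61 to -0.01, adjusted p = 0.138), -0.54 for *Il2ra* (-1.38 to 0.31, adjusted p = 0.364) and -0.45 for *Dntt* (-1.61 to 0.71, adjusted p = 0.599). With limma on all libraries, 0 of 5 were called, where 22.1% of all genes were, and 2 of them had an unadjusted p under 0.05 (35.6% of all genes). edgeR called 0, where it called 1503 of 14141 genes higher and 1570 lower, and DESeq2 called 1, *Rag1*, and 25.7% of all genes. All 5 were lower in each of the 4 WNK1-deficient libraries than in each of the 3 control libraries, as were 21.1% of all genes. Fitted on the 7 libraries of 0 hr alone, all 5 were called, where 33.8% of all genes were. Without the 2 libraries of 24 and 48 hr that stood apart, *Ptcra*, *Rag1* and *Rag2* were called with the same differences, as were 25.2% of all genes, and without the control library of 24 hr alone *Rag1* and *Rag2* were. Since the genotypes of 0 hr were sequenced in different lanes, lane and genotype cannot be told apart in these values.

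At 3 hr the genotype difference was -2.42 for *Rag1* (adjusted p = 0.107) and -2.30 for *Rag2* (adjusted p = 0.132), and -0.88, -0.41 and -0.31 for *Ptcra*, *Dntt* and *Il2ra*. None of the 5 was called by limma, where 9.18% of all genes were, although 2 had an unadjusted p under 0.05, as did 23.3% of all genes. edgeR called 0, where it called 795 of 14141 genes higher and 544 lower, and DESeq2 called *Rag1* and 12.9% of all genes. *Ptcra*, *Rag1*, *Rag2* and *Dntt* were lower in every WNK1-deficient library than in any control library, as were 14.2% of all genes. Both recombinase genes were called without the control library of 24 hr that stood apart, and without that and the WNK1-deficient library of 48 hr, where 11.6% of all genes were. Without the control library of 3 hr with DP genes, their differences were -1.93 and -1.999 and neither was called.

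At 24 hr *Ptcra*, *Rag1*, *Rag2* and *Dntt* were called lower in WNK1-deficient thymocytes, 4 of 5 genes where 5.45% of all genes were called lower. *Ptcra* differed by -5.62 (interval -7.75 to -3.49, adjusted p = 0.00107), *Rag2* by -3.07 (-5.00 to -1.15, adjusted p = 0.0331), *Rag1* by -2.92 (-4.82 to -1.01, adjusted p = 0.0404) and *Dntt* by -2.55 (-3.79 to -1.31, adjusted p = 0.00737). These 4 did not overlap between the genotypes, as was true of 16.9% of all genes in this direction. *Il2ra* differed by -0.30 (-1.21 to 0.60). The size of all of these rests in part on the control library that stood apart. Without it the differences were -4.01 for *Ptcra*, which was still called, and -1.72 for *Dntt*, -1.49 for *Rag2*, -1.23 for *Rag1* and 0.42 for *Il2ra*, none of which was called. With the WNK1-deficient library of 48 hr left out as well, *Dntt* was called again. That fit called 600 of the 14141 genes tested lower, and 9.7% of them in either direction. Without replicate 1 or replicate 2 of the WNK1-deficient libraries, 2 of 5 genes were called. These fits called 415 and 370 of the 14141 genes tested lower. *Ptcra* passed the threshold under each of the 40 alternatives tried, with adjusted p from 2.8e-09 to 0.0463.

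At 48 hr no gene was called between the genotypes, with differences from -1.13 for *Ptcra* to 0.72 for *Il2ra*, where 13.1% of all genes were called. No unadjusted p was under 0.05 by limma, against 27.7% of all genes, and edgeR and DESeq2 called 0. Of all genes edgeR called 907 of 14141 higher and 856 lower, and DESeq2 1128 of 14125 higher and 1223 lower. All 5 groups overlapped. Without the WNK1-deficient library that stood apart the differences were -2.72 for *Ptcra*, -1.27 for *Rag1*, -0.91 for *Rag2*, -0.78 for *Dntt* and 0.42 for *Il2ra*. *Ptcra* was called once the control library of 24 hr was left out too, where 9.86% of all genes were, and the others were not.

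**Figure D4:**
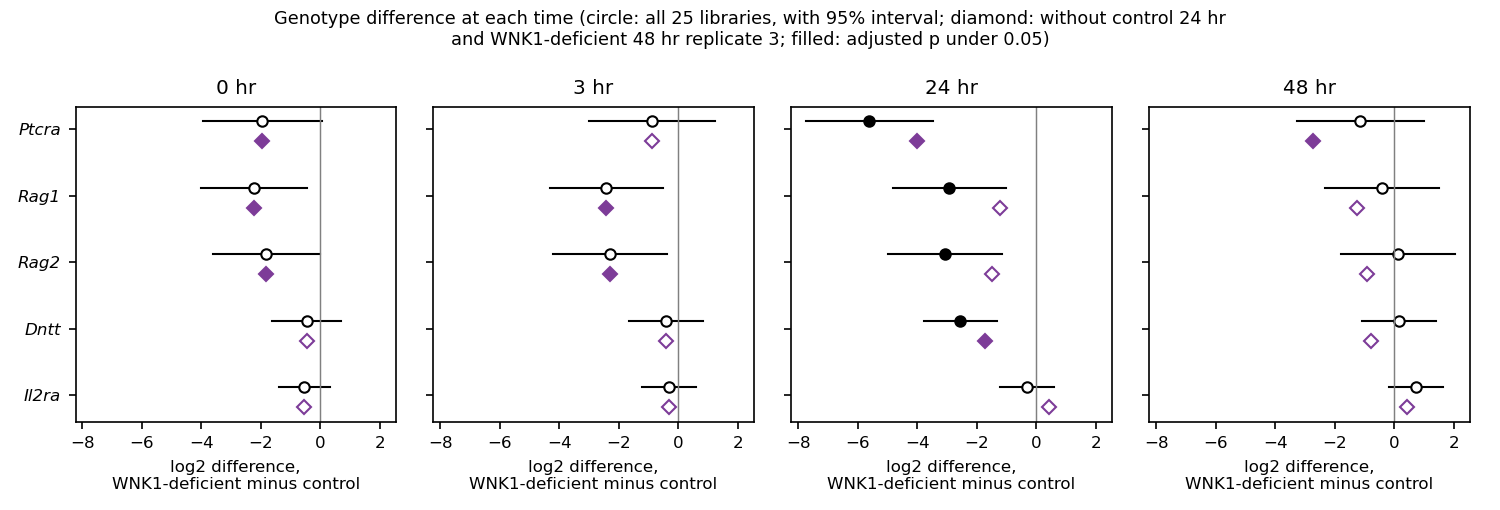
Log2 difference between WNK1-deficient and control thymocytes for each gene at each time. Circles with 95% intervals come from the fit of all 25 libraries and diamonds from the fit without the control library of 24 hr and the WNK1-deficient library of 48 hr that stood apart, and filled symbols were called. *Ptcra* at 24 hr is filled in both, at -5.62 and -4.01, and *Rag1* at 24 hr in the first only.

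Whether the fall itself differed between the genotypes was tested as an interaction. None of the 5 was called at 3, 24 or 48 hr against 0 hr, or at 48 against 24 hr, by limma, where 0.0707%, 0.658%, 1.36% and 0.0283% of all genes were. The estimated fall of *Ptcra* at 24 hr was larger in WNK1-deficient thymocytes, without a call (interaction -3.66, interval -6.58 to -0.75, adjusted p = 0.238). So was that of *Dntt* (interaction -2.10, interval -3.80 to -0.41, adjusted p = 0.244). Leaving out 1 library at a time brought the 2 interactions to as little as -2.06 and -1.27. *Ptcra* and *Dntt* were the 2 genes of the 5 with an unadjusted p under 0.05 at 24 hr (14.3% of all genes), against 0 at 3 hr (12.8%), 1 at 48 hr (12.9%) and 3 at 48 against 24 hr (11.9%). edgeR called 0 in all 4, where it called 5, 48, 66 and 3 of 14141 genes higher and 5, 40, 104 and 2 lower. DESeq2 called *Ptcra* at 24 hr, where it called 2.56% of all genes, and all but *Il2ra* at 48 against 24 hr, where it called 1.48%. By limma that last interaction was 4.48 for *Ptcra*, 2.51 for *Rag1*, 3.20 for *Rag2* and 2.71 for *Dntt*. Without the 2 libraries of 24 and 48 hr that stood apart it was 1.29, -0.038, 0.57 and 0.94. DESeq2 was not run without them. Without the 2 libraries of 24 and 48 hr that stood apart the interaction of *Ptcra* at 24 hr was -2.06 and was called, beside 1.73% of all genes. For *Rag1* the interaction at 24 hr was -0.70 (-3.31 to 1.91) and for *Rag2* -1.26 (-3.90 to 1.38), and without the control library of 24 hr both had the opposite sign, at 0.99 and 0.32.

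From 24 to 48 hr, *Ptcra* rose in WNK1-deficient thymocytes by 3.62 (interval 1.49 to 5.75, adjusted p = 0.0370), 1 of 5 genes where 3.38% of all genes were called higher. Every library of 48 hr was above every one of 24 hr for *Ptcra*, *Rag1* and *Dntt*, as for 16.5% of all genes. Without the library of 48 hr that stood apart the difference of *Ptcra* was 2.04, with 18.2 and 22.5 in the 2 libraries of 48 hr, against at most 5.93 at 24 hr, and was not called. The call was also lost without any 1 of the 3 libraries of 24 hr. It was made when both libraries of 24 and 48 hr that stood apart were left out, where 7.74% of all genes were called in either direction. In control thymocytes no gene was called between 48 and 24 hr by limma, where 23.3% of all genes were, and none had an unadjusted p under 0.05, against 37.5% of all genes. edgeR called *Rag1* and *Rag2* and 23.1% of all genes, and DESeq2 these genes, *Ptcra* and 27.8% of all genes, the 3 being lower at 48 hr. Without the control library of 24 hr that stood apart the differences of *Ptcra*, *Rag1*, *Rag2* and *Il2ra* had the opposite sign, at 0.74, 0.58, 0.03 and 0.57.

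Ordered by their means, the 8 groups began with control thymocytes of 0 hr and ended with WNK1-deficient thymocytes of 24 hr for each of the 5 genes. Without the 3 libraries that stood apart the lower end changed. *Il2ra* was then lowest in control thymocytes of 24 hr, at 6825, against 9205 in WNK1-deficient thymocytes of 24 hr, and control thymocytes of 48 hr held more *Ptcra* (141) than those of 24 hr (86.99). With all libraries the means of *Ptcra* were 17815, 4627, 2449, 1220, 839, 205, 141 and 4.31 in the order control 0 hr, WNK1-deficient 0 hr, control 3 hr, WNK1-deficient 3 hr, control 24 hr, WNK1-deficient 48 hr, control 48 hr and WNK1-deficient 24 hr. Neighbours in that order were free of overlap at 3 steps: between the genotypes at 0 hr, between the genotypes at 3 hr, and between control 48 hr and WNK1-deficient 24 hr. *Dntt* had the same order, and its first 3 groups each lay clear of the next. For *Il2ra* the 4 groups of 0 and 3 hr came first and only the step from these to 24 and 48 hr was free of overlap. *Rag1* of control thymocytes at 3 hr, at 5832 ± 3758 (SD, n = 3), was not set apart from WNK1-deficient thymocytes at 0 hr, at 3951 ± 560 (SD, n = 4).

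The 5 genes moved alike over the 25 libraries. Pearson's r of log2(value + 1) was 0.99 between *Rag1* and *Rag2* and 0.98 between *Ptcra* and *Dntt*, and the pairs with *Il2ra* ran from 0.88 to 0.91. All points share the same time course, the lanes and the 3 libraries that stood apart, so these values describe a shared decline and nothing more. Among the 10585 genes with a symbol and a mean of at least 100, the closest to *Ptcra* after *Dntt* were *Ptprf*, a receptor tyrosine phosphatase, at 0.97 and *Acot5*, an acyl-CoA thioesterase, at 0.97. *Acot5* averaged 1.25 in WNK1-deficient and 136 in control thymocytes at 24 hr, and 350 and 1074 at 0 hr. The closest to both *Rag1* and *Rag2* after each other were *Xrcc6*, which encodes the Ku70 subunit of the end-joining machinery, at 0.98 with both, and *Prss57*, a serine protease, at 0.97 and 0.98. *Dntt* was followed by *Ptcra*, *Ly6d*, a surface antigen of lymphoid progenitors, and *A930013B10Rik*, each at 0.98. *Ppt1*, *Vegfa* and *Uck2* were closest to *Il2ra*, each at 0.97. *Vegfa*, the vascular growth factor, averaged 40.4 in WNK1-deficient and 112 in control thymocytes at 24 hr, and 605 and 919 at 0 hr.

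Besides *Ptcra*, the list of pre-TCR and CD3 chains held 6 genes, of which 2 were called lower at 24 hr in WNK1-deficient and 3 in control thymocytes and none higher, where 14.3% and 16.9% of all genes were called lower. Their medians were -0.26 and -0.30, where the median of all genes was 0.00 and -0.01. *Cd3g* fell by 1.49 in WNK1-deficient and by 2.09 in control thymocytes, and *Cd3d*, another CD3 chain, by 0.57 and by 1.88. At 0 hr, where lane and genotype cannot be told apart, these 2 and *Cd3e* were lower in WNK1-deficient thymocytes, by 0.98, 1.38 and 0.88. In the list of 3 germline receptor regions with a value, only *Trac* was called in either genotype, higher by 8.16 in WNK1-deficient and by 9.11 in control thymocytes.

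Of 12 other genes of V(D)J recombination, 2 were called lower and 2 higher at 24 hr in each genotype, with medians of -0.17 in WNK1-deficient and 0.05 in control thymocytes. Over all genes, 14.3% were called lower and 16% higher in WNK1-deficient and 16.9% and 17% in control thymocytes. Without the control library that stood apart, 4 of the 12 were called lower in control thymocytes. *Xrcc6* averaged 2816 ± 191 in WNK1-deficient thymocytes at 24 hr (SD, n = 3), against 12221 ± 596 at 0 hr (SD, n = 4), and fell by 2.12, and in control thymocytes it fell by 1.52. *Polm* and *Poll*, which encode the polymerases μ and λ of end joining, rose, *Polm* by 2.89 in WNK1-deficient and by 4.26 in control thymocytes and *Poll* by 2.25 and by 1.47. *Polm*, a relative of *Dntt*, thus changed in the opposite direction. *Lig4*, the ligase of end joining, was called lower in WNK1-deficient thymocytes (-1.86), and was at -0.73 without a call in control thymocytes. The interaction was -1.13 and was not called (adjusted p = 0.307), and without the control library that stood apart *Lig4* was called in control thymocytes too, at -1.03.

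The other chains of the IL-2 receptor did not fall with *Il2ra*. *Il2rb*, the β chain, averaged 9974 ± 1060 in WNK1-deficient thymocytes at 24 hr (SD, n = 3), against 25.4 ± 11.2 at 0 hr (SD, n = 4), and rose by 8.67, and in control thymocytes it rose by 7.92. *Il2rg*, the common γ chain, rose by 1.28 and by 0.73, and *Jak1* and *Jak3*, the kinases bound to these chains, rose in both. *Stat5a* fell by 0.52 and by 0.72. *Il7r*, the α chain of the IL-7 receptor, rose at 3 hr, by 0.93 in WNK1-deficient and by 2.16 in control thymocytes, and was not called at 24 hr. Of the 7 genes of this list besides *Il2ra*, 4 were called higher and 1 lower at 24 hr in each genotype, where 16% and 17% of all genes were called higher, with medians of 0.73 and 0.60.

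All 7 genes of a list of Notch targets and other DN3 genes were called lower at 24 hr in WNK1-deficient and 6 in control thymocytes, with medians of -2.51 and -2.34, where 14.3% and 16.9% of all genes were. *Notch3* averaged 259 ± 88.8 in WNK1-deficient thymocytes at 24 hr (SD, n = 3), against 9163 ± 1589 at 0 hr (SD, n = 4), and fell by 5.18, and *Hes1*, a repressor induced by Notch, fell by 3.87. In control thymocytes they fell by 4.85 and by 3.51. *Notch3* was also lower in WNK1-deficient than in control thymocytes at 0 hr (-1.96) and at 24 hr (-2.30), as was *Dtx1*, a Notch target (-1.41 and -1.97). In all, 3 of 7 genes of the list were called lower at 0 hr, where 11.1% of all genes were and where lane and genotype cannot be told apart. At 24 hr 4 were called lower, where 5.45% of all genes were. *Notch3* at 24 hr was at 240, 180 and 355 in WNK1-deficient libraries, against 397, 759 and 6107 in control libraries, the last being the one that stood apart. Without it the difference was -1.14 and was not called. In that fit 2 of the 7 genes were called lower, beside 492 of the 14141 genes tested. From 24 to 48 hr, 4 of the 7 were called higher in WNK1-deficient thymocytes, where 3.38% of all genes were. Without the library of 48 hr that stood apart 2 were called higher, beside 431 of the 14141 genes tested. At 48 hr *Dtx1* was at 111% of its 0 hr mean in WNK1-deficient and at 144% in control thymocytes. Of 29 transcription factors described at the *Rag*, *Ptcra* or *Il2ra* loci, 13 were called lower and 9 higher at 24 hr in WNK1-deficient and 11 and 9 in control thymocytes, with medians of -0.39 and -0.12. *Notch1*, *Notch3* and *Hes1* are on this list as well as on the one before. Over all genes, the shares were 14.3% lower and 16% higher in WNK1-deficient and 16.9% and 17% in control thymocytes. *Egr1* and *Egr3*, immediate targets of receptor signals, rose at 3 hr, by 7.69 and 10.82 in WNK1-deficient and by 9.88 and 10.10 in control thymocytes. *Id3*, an inhibitor of E proteins, rose by 2.74 and by 2.56 at 3 hr. *Spib*, an ETS factor, was called lower at 24 hr in both genotypes, at -5.57 in WNK1-deficient thymocytes.

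Of 12 markers of cells after β-selection, 6 were called higher and 2 lower at 24 hr in WNK1-deficient and 8 higher and none lower in control thymocytes, with medians of 1.04 and 2.37, where 16% and 17% of all genes were called higher. At 0 hr 4 of them, *Cd69*, *Cd2*, *Tfrc* and *Slc3a2*, were called higher in WNK1-deficient thymocytes, by 5.60, 2.83, 1.61 and 0.58, and none lower, where 11% of all genes were called higher. Their part in the lower level of the 5 genes at 0 hr was not tested, and lane and genotype cannot be told apart at that time.

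**Figure D5:**
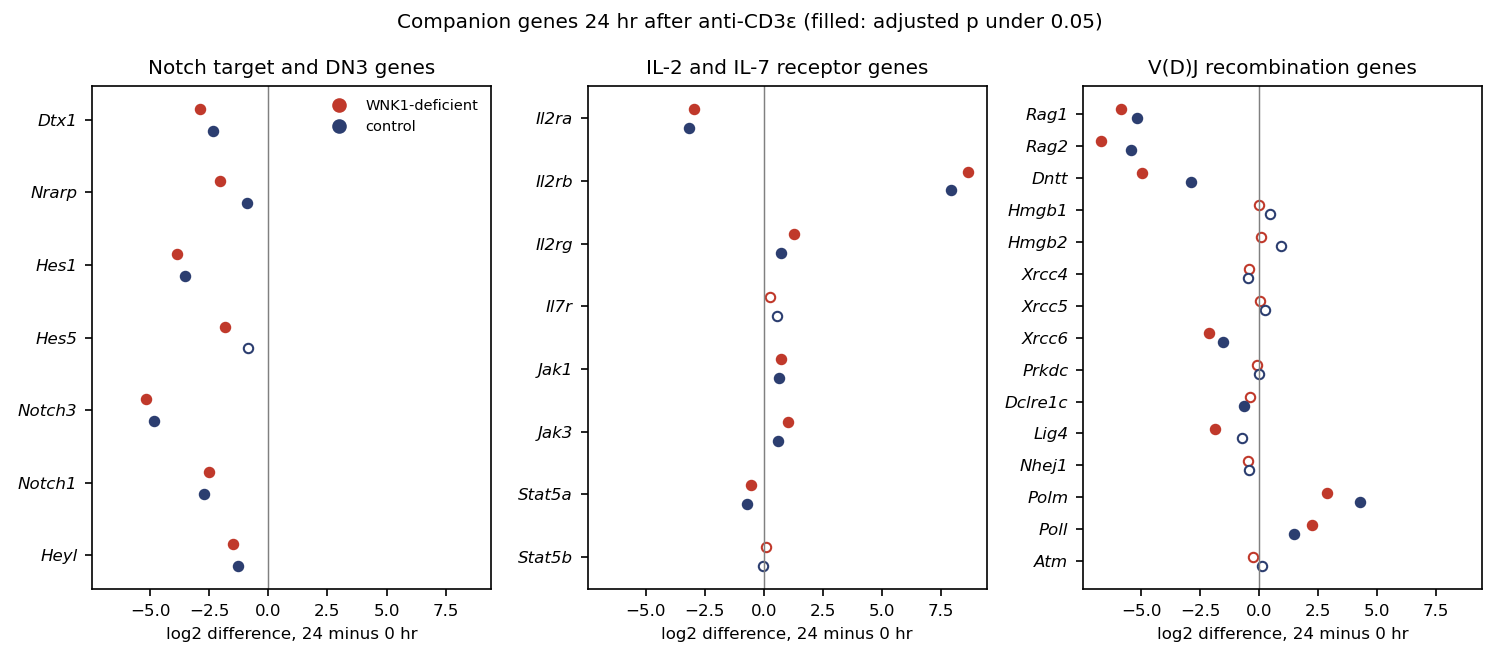
Log2 difference between 24 and 0 hr for the tested genes of 3 lists, in WNK1-deficient (red) and control (blue) thymocytes, with filled circles for genes that were called. *Il2rb* lies at 8.67 and 7.92 and *Il2ra* at -2.95 and -3.18, and *Notch3* lies at -5.18 and -4.85.

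Values within one lane were at hand for part of the comparisons. Control libraries of 0 hr and replicate 3 of control thymocytes at 48 hr shared lane 1 and sex, and within it *Ptcra* was at 135 at 48 hr against 17815 at 0 hr, *Rag1* at 176 against 19138, *Rag2* at 28.03 against 4110, *Dntt* at 4933 against 110004 and *Il2ra* at 12387 against 100821. The log2 differences within that lane were -7.03, -6.69, -7.12, -4.47 and -3.02. For WNK1-deficient thymocytes no lane held libraries of 0 hr and of a later time. Between genotypes at 24 hr, lane 4 held 1 WNK1-deficient and 2 control libraries, none of which stood apart. Within it *Ptcra* differed by -4.08, and *Rag1*, *Rag2*, *Dntt* and *Il2ra* by -1.18, -0.79, -1.39 and 0.84. Within lane 3, where the control library that stood apart was the only control, the difference of *Ptcra* was -8.79. Within lane 1 at 48 hr, with 2 WNK1-deficient libraries and 1 control library, it was -2.68. Within lane 4 at 3 hr the only control was the library with DP genes, and *Ptcra* differed by -0.39 and *Rag1* by -3.40.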

How the data were processed

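RNA of 25 sorted thymocyte populations was sequenced as stranded polyA libraries in 75-base single reads. Per the study's methods, the authors trimmed reads with Trimmomatic 0.36, aligned them with STAR 2.5.2a to GRCm38 (Ensembl release 86), counted genes with RSEM 1.2.31 and divided the counts by DESeq2 1.18.1 size factors in R 3.4.1. The deposited signal values are these normalized counts. Whole reads were recovered from all 25 libraries within a tolerance of 0.001, giving 22.5 to 57.3 M reads a library. In 2 libraries the size factor was so near 1 that the step could not be told from it.

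The genes whose mean reached 10 were tested as log2(value + 1) in limma 3.58.1 (R 4.3.3), with 8 group means, a trended prior and Benjamini-Hochberg adjustment within each of 16 comparisons at 0.05. A gene past that threshold is said to be called. edgeR 4.0.16 and DESeq2 1.42.0 were run on the recovered reads as alternatives. Other alternatives changed the pseudocount, filter, scaling, prior, block, lane term and libraries. The code was tested on simulated data. Each library is a different mouse of one experiment, so p-values measure the spread between these mice. Besides the 5 genes, the text names the 3 genes most correlated with each over the libraries (mean of at least 100), and up to 6 called genes of a list by size of difference. The members and lists were chosen with earlier results of these data known. Leaving out the libraries that stood apart, and pointing out the library with DP genes, were chosen after seeing the data. Promoters and positions are RefSeq's for GRCm38.p6. Tables were made with pandas 2.3.3 and numpy 2.4.6 under Python 3.11.15, and plots with matplotlib 3.10.9. Some marker genes are not reported here.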

Additional observations from a re-analysis of the deposited data

How the results depend on the processing

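Of 80 differences of the 5 genes, 27 of them called, 3200 values under 40 alternatives gave 3048 with the same direction and side of the threshold, 33 that lost a call, 62 that gained one and 57 of opposite sign. For 24 and 48 hr against 0 hr, 799 of 800 kept both. The cause of the changes below was not tested. Counts of the 5 genes called between genotypes at 0 hr (0) were 5 with only the groups compared, 1 with DESeq2 and 3 without the 2 libraries that stood apart, an alternative chosen after seeing the data. At 3 hr (0) they were 1, 1 and 2 in these fits. At 24 hr (4) the count was 2 with no filter, 1 with only the groups compared and 2 without the 2 libraries, and at 48 hr (0) it was 1 without them. For 3 against 0 hr in WNK1-deficient thymocytes (1) it was 4 with only the groups compared, 0 with lane as a term and 4 without the 2 libraries. In control thymocytes (1) it was 2 with a pseudocount of 5, upper-quartile scaling, edgeR or DESeq2, 3 with lane, and 4 with only the groups compared or without the 2 libraries. For 48 against 24 hr in WNK1-deficient thymocytes (1) it was 0 with a pseudocount of 5, no filter or only the groups compared, and 2 with lane, edgeR or DESeq2, and in control thymocytes (0) 2 with edgeR and 3 with DESeq2. Of interactions (0), 1 was called at 24 hr by DESeq2 and 1 without the 2 libraries, and 4 at 48 against 24 hr by DESeq2. Leaving out 1 library at a time gave 0 to 2 called between genotypes at 0 hr and at 3 hr, 1 to 4 at 24 hr, 0 to 2 and 0 to 3 for 3 against 0 hr in WNK1-deficient and control thymocytes, and 0 to 3 for 48 against 24 hr in WNK1-deficient thymocytes. Calls among all 14141 genes tested moved too. With only the groups compared, genes called lower without WNK1 went from 1572 to 2393 at 0 hr. They went from 485 to 105 at 3 hr and from 771 to 414 at 24 hr.

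Replicate numbers did not pair the samples: deviations of same-numbered WNK1-deficient and control libraries of one time correlated at a median of -0.0235 (-0.197 to 0.205, 12 pairs). The replicate block called 2 of 5 genes for 3 against 0 hr in control thymocytes and moved no other count of calls by over 1.5 times.

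Signs turned as follows. With lane as a term, genotype differences at 3 hr were 0.37 for *Ptcra*, 0.079 for *Dntt* and 0.16 for *Il2ra*, at 48 hr -0.78 for *Rag2* and -0.34 for *Dntt*, control 48 against 24 hr 2.61 for *Ptcra*, 0.28 for *Rag1*, 0.80 for *Rag2*, 0.74 for *Dntt* and 0.60 for *Il2ra*, and interactions 1.199 for *Rag1* and 0.34 for *Rag2* at 3 hr, -0.46 for *Il2ra* at 24 hr and -0.67 for *Ptcra* at 48 hr. This term ties lanes 1 and 2 to lanes 3 and 4 through one library that stood apart. Without the 2 libraries, genotype differences were 0.42 for *Il2ra* at 24 hr and -0.91 for *Rag2* and -0.78 for *Dntt* at 48 hr, control 48 against 24 hr 0.74 for *Ptcra*, 0.58 for *Rag1*, 0.030 for *Rag2* and 0.57 for *Il2ra*, and interactions 0.99 for *Rag1* and 0.32 for *Rag2* at 24 hr, -0.77 for *Ptcra* and -0.33 for *Dntt* at 48 hr, and -0.038 for *Rag1* and -0.0025 for *Il2ra* at 48 against 24 hr. *Ptcra* between genotypes at 48 hr was 0.48 with edgeR and 0.54 with DESeq2, the interaction of *Il2ra* at 24 hr -0.11 and -0.13, and *Il2ra* at 3 against 0 hr in WNK1-deficient thymocytes 0.23 with quantile normalization. Of 280 values for 56 counts of list genes, 24 moved by over 1.5 times. At 24 hr *Ptcra* in WNK1-deficient libraries rests on 2 to 8 reads, which limits the size of its fall. Leaving out 1 library at a time, signs turned within these ranges: control 48 against 24 hr -1.90 to 0.74 for *Ptcra*, -2.02 to 0.58 for *Rag1*, -2.38 to 0.030 for *Rag2* and -0.64 to 0.57 for *Il2ra*. Between genotypes they ran from -1.27 to 0.084 for *Rag1*, -0.91 to 0.91 for *Rag2* and -0.78 to 0.74 for *Dntt* at 48 hr, and from -0.79 to 0.42 for *Il2ra* at 24 hr. Interactions ran from -0.52 to 0.29 for *Rag1* and -0.080 to 0.16 for *Dntt* at 3 hr, -1.61 to 0.99 for *Rag1*, -2.09 to 0.32 for *Rag2* and -0.25 to 0.96 for *Il2ra* at 24 hr, and -0.77 to 1.68 for *Ptcra* and -0.33 to 1.19 for *Dntt* at 48 hr.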
